A study of Gossypium hirsutum with 16 samples.

Results

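The 150 genes described here stood highest in the control apices of the nulliplex-branch cotton strain 3798. They were picked from 70422 gene IDs by their FPKM (a gene's fragment count divided by its length and by the total for the library). For each of 39632 genes with a 3798 control median of at least 2 FPKM, that median plus 0.5 was divided by the highest of the other 3 group medians plus 0.5, and the 150 highest ratios were taken. All 16 libraries therefore entered the choice. The height of the 3798 controls over each other group is a description of the chosen genes, with no test.

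Messenger RNA came from shoot apices of upland cotton (Gossypium hirsutum) seedlings, in 4 groups of 4 libraries. The groups were controls and plants with GhBRC1 silenced by VIGS in strain 3798, labelled nulliplex-branch, and the same 2 treatments in Jinxian-short branch, called JX here, labelled as having short fruit branches. VIGS, or virus-induced gene silencing, infects a plant with a virus engineered to hold a piece of one of its genes, so that antiviral RNA interference also degrades that gene's transcripts. The labels give no age beyond the seedling stage, do not say what the controls received, and leave unsaid whether replicate libraries were from different plants. The p-values below therefore measure the spread between libraries, which may be technical.

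The shoot apex holds the stem cells that form leaves and the axillary meristems, and in cotton an axillary meristem can become a vegetative branch, a fruiting branch or a flower. A nulliplex-branch plant sets its flowers straight into leaf axils along the stem, with no extended fruiting branches. In Arabidopsis and other plants BRC1, a transcription factor of the TCP family, restrains axillary bud outgrowth. The sources used here pair none of the IDs with a gene name, so no role is given to any of the 150 genes, and the levels of GhBRC1 and of marker genes of the apex were not analysed here. The labels are used without a check by the silenced gene. In whole apices, fewer cells of a type and less RNA per cell cannot be told apart.

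3 libraries stood apart from their groups. On log2(FPKM + 0.5) over 55040 genes, 3798 control 3 had a mean correlation of 0.931 with the other 3798 controls and of 0.962 with the JX controls. The other 3798 controls correlated with their own group at 0.953 to 0.957 and with the JX controls at 0.900 to 0.906. The JX controls correlated with one another at 0.967 to 0.969. JX silenced 4 correlated with its own group at 0.943, where the other JX silenced libraries reached 0.952 to 0.960, and 3798 silenced 4 at 0.954, where the others reached 0.963 to 0.965. With the JX controls, JX silenced 4 correlated at 0.929, where the other JX silenced libraries had 0.864 to 0.893. For 3798 silenced 4 it was 0.920, where the other 3798 silenced libraries had 0.865 to 0.874. All 3 libraries were thus more like the JX controls than the rest of their groups were, and the cause was not tested. Total FPKM ranged from 552185 to 603167 per library. Relative sequencing depth was estimated from the most frequent ratio of low values between each library and 3798 control 1, set to 1. It was lowest in JX control 2 (0.909) and highest in 3798 silenced 3 (1.33). The estimate assumes that low values are whole reads, which few appeared to be, so it is rough. Absolute depth is unknown.

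As a group, the 150 genes made up 1.10%, 1.08% and 1.04% of all FPKM in 3798 controls 1, 2 and 4 and 0.405% in 3798 control 3. Their summed level was 6245, 5964, 2299 and 5741 FPKM in 3798 controls 1 to 4. It was 1378 to 2222 FPKM in the 3798 silenced libraries, 872.7 to 1398 FPKM in the JX controls and 1077 to 1711 FPKM in the JX silenced libraries. Controls 1, 2 and 4 lay far above every other library, and control 3 lay just above the highest of the silenced libraries, 3798 silenced 1. That order rested on Gh_A11G188000: without it control 3 summed to 1695 FPKM, below 3798 silenced 1 (2222), 3798 silenced 2 (1744) and JX silenced 2 (1711). The median level over the 150 genes was 11, 12.1, 5.02 and 12.5 FPKM in the 4 controls of 3798 and 1.87 to 5.0 FPKM in the other 12 libraries.

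**Figure D1:**
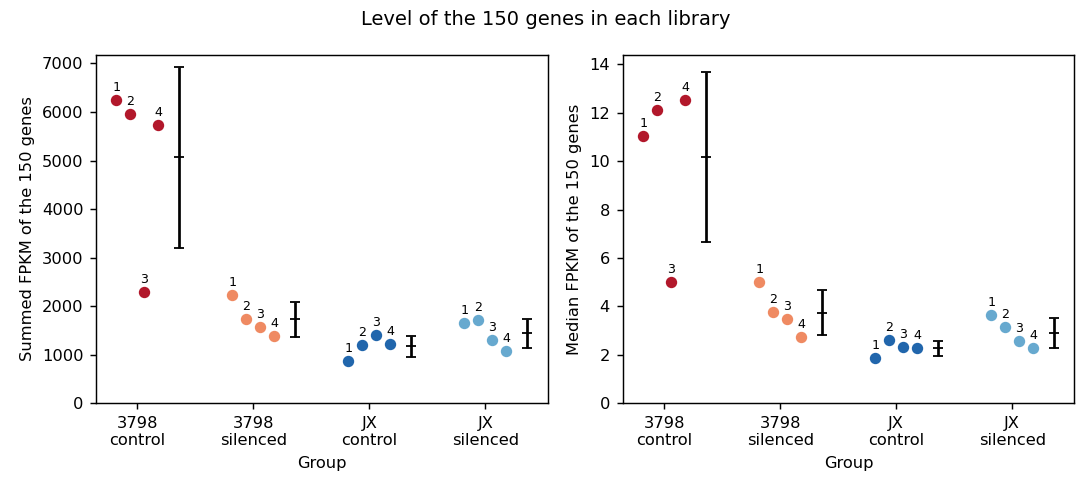
Summed (left) and median (right) FPKM of the 150 genes in each library, numbered by replicate; the black marks are the group mean and SD (n = 4). 3798 controls 1, 2 and 4 sum to between 5741 and 6245 FPKM, while 3798 control 3, at 2299 FPKM, lies near the silenced libraries of the same strain.

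The selection ratio ran from 15.1 down to 1.99, with a median of 2.37, and 36 genes reached 3. Just inside the limit were Gh_A05G093100 and Gh_D02G010200, both with a ratio of 1.99. Just outside were Gh_A12G263100, at 1.99, and Gh_Contig01062G000300, at 1.98. So the set has no natural edge, and its last members hardly differ from the next genes. The 3798 control medians spanned 2.05 to 921 FPKM, with 74 genes under 10 FPKM and 6 at 100 FPKM or more. Over the 150 genes, the median of the 3798 control medians was 10.6 FPKM, against 3.18 FPKM in 3798 silenced, 2.09 FPKM in JX controls and 2.52 FPKM in JX silenced libraries.

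Few of the genes were higher in all 4 controls of 3798 than anywhere else. In 23 of the 150 genes every 3798 control exceeded all 12 other libraries, where 1.30% of the 39632 eligible genes did so. Controls 1, 2 and 4 exceeded all 12 in 119 genes, where 6.82% of eligible genes did so. These 2 counts come from the values that chose the genes, and nothing is read from them. In 8 genes no 3798 control exceeded all 12 others, so for these the high group median does not mean a level seen in that group alone.

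**Figure D2:**
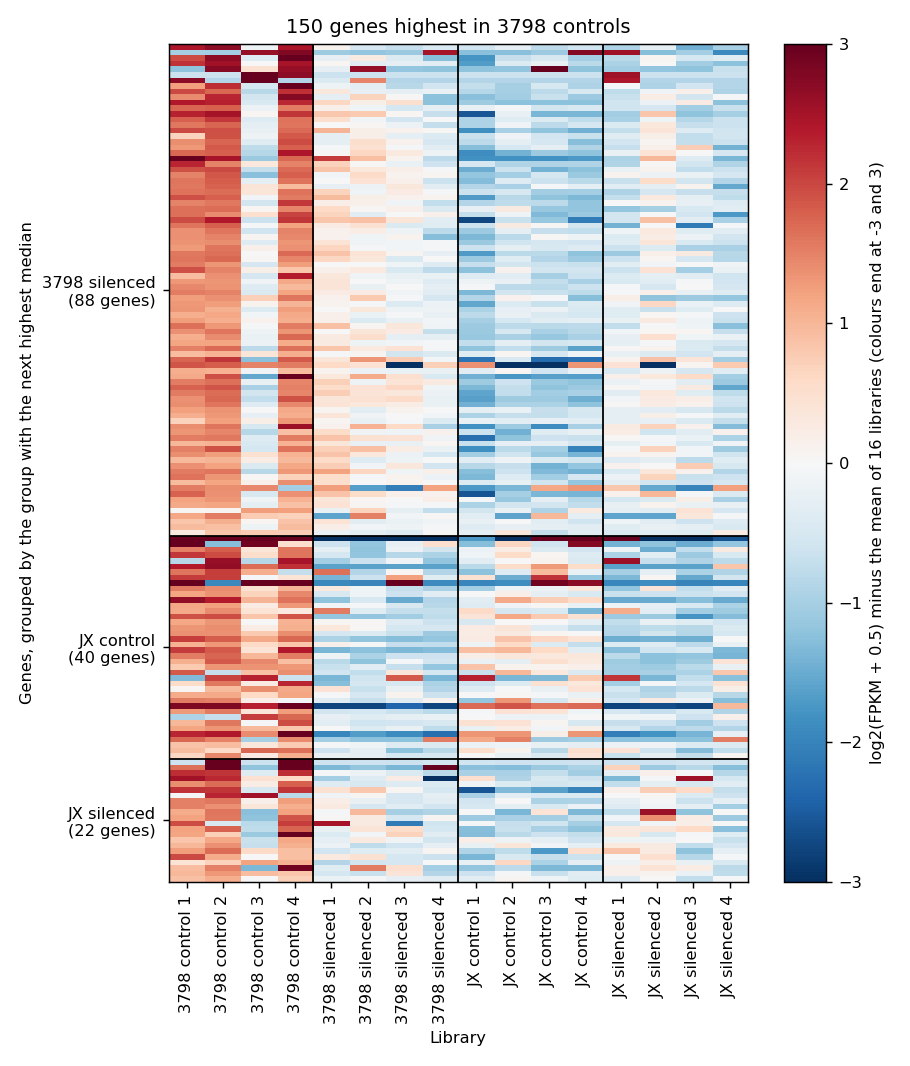
The 150 genes (rows) in the 16 libraries (columns), as log2(FPKM + 0.5) minus the gene's mean over all libraries; rows are grouped by which of the other 3 groups had the next highest median (88, 40 and 22 genes). Red fills the columns of 3798 controls 1, 2 and 4, the column of control 3 is much paler, and scattered dark cells mark genes seen in single libraries.

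Gh_A11G188000, on chromosome A11 by its ID, had the second highest 3798 control median of the set (801 FPKM). It was at 1237, 722, 604 and 881 FPKM in 3798 controls 1 to 4, at 0.0125 to 0.0198 FPKM in the 3798 silenced libraries, and at 3.71, 0.0213, 368 and 247 FPKM in JX controls 1 to 4. In the JX silenced libraries 1 to 4 it was at 471, 0.0226, 0.0102 and 1.76 FPKM. Thus all 3798 controls were high and all 3798 silenced libraries were at the bottom of the scale, while each JX group held both kinds of library. Levels inside the JX groups spanned more than the difference between them.

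Gh_D12G259200 and Gh_A12G264700 had the highest and the third highest 3798 control medians. Gh_D12G259200 was at 1109, 994, 273 and 848 FPKM in 3798 controls 1 to 4, at 308 to 555 FPKM in 3798 silenced, at 88.7 to 162 FPKM in JX controls and at 171 to 351 FPKM in JX silenced libraries. Gh_A12G264700 was at 481, 469.9, 104 and 396 FPKM in the 3798 controls, at 124 to 249 FPKM in 3798 silenced, at 33.6 to 62.0 FPKM in JX controls and at 74.3 to 160.2 FPKM in JX silenced libraries. Both had controls 1, 2 and 4 above every other library and control 3 below all 4 of the 3798 silenced libraries.

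The highest ratios were led by genes with uneven levels among the 3798 controls. Gh_A08G128000 was at 14.3 and 15.9 FPKM in 3798 controls 2 and 4 and at 0.00184 and 0.000847 FPKM in controls 1 and 3, with at most 0.0234 FPKM in any other library. It ranked highest because a median over 4 libraries falls between its high and its low pair. Gh_A01G185300 was at 4.27, 18.3, 0.151 and 17.1 FPKM in 3798 controls 1 to 4, and 3798 silenced 4 reached 15.9 FPKM, while the other 3798 silenced libraries stayed at or below 0.164 FPKM. Gh_Contig00964G000100 was at 0.438, 0.430, 10.9 and 12.4 FPKM in the 3798 controls and also at 9.99 FPKM in 3798 silenced 4, 12.2 FPKM in JX control 4 and 10.5 FPKM in JX silenced 1. In all 4 groups it was thus high in some libraries and at or under 0.438 FPKM in the rest. Gh_A10G125900, chosen after its values were seen, was at 27.8, 0.128, 18.4 and 26.5 FPKM in the 3798 controls, at 31.2 FPKM in 3798 silenced 3 and at 17.3 and 15.2 FPKM in JX controls 3 and 4. The other 9 libraries had 0.0985 to 0.162 FPKM. In 12 of the 150 genes at least 1 of 3798 controls 1, 2 and 4 was under 0.5 FPKM, where 0.255% of eligible genes had this.

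Other high ratios came from genes that were high in each of controls 1, 2 and 4. Gh_D11G379800 was at 9.48, 11.4 and 9.64 FPKM in these, at 1.18 FPKM in control 3 and at 0.184 to 1.5 FPKM in the 12 other libraries. Gh_A10G016300 was at 54.5, 91.3 and 112 FPKM in controls 1, 2 and 4, at 10.4 FPKM in control 3 and at 3.67 to 16.6 FPKM elsewhere. Gh_A11G371700, which ranked 7 and was named after its values were seen, was at 52.2, 67.4 and 65.2 FPKM in controls 1, 2 and 4, at 11.3 FPKM in control 3 and at 3.20 to 11.8 FPKM elsewhere. In each of these 3 genes control 3 fell inside the range of the 12 other libraries.

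**Figure D3:**
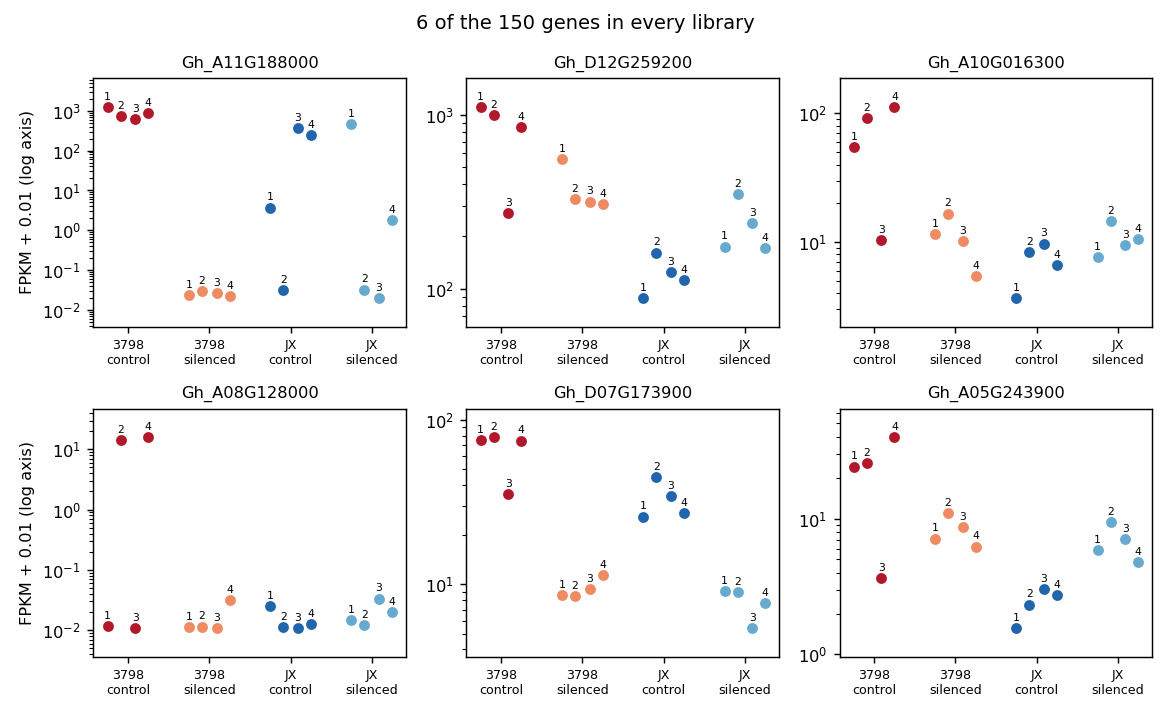
6 of the 150 genes in every library (FPKM + 0.01, log axis; points are single libraries, numbered by replicate). Gh_A11G188000 and Gh_A08G128000 have both high and near-zero libraries, the other 4 are graded, and in Gh_D12G259200, Gh_A10G016300, Gh_D07G173900 and Gh_A05G243900 control 3 is the lowest of the 3798 controls.

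Most of the genes were lower in 3798 control 3 than in the other controls of its group. It was the lowest of the 4 in 126 of the 150 genes, where it was the lowest in 31.4% of eligible genes. Its level was a median of 33.3% of the median of controls 1, 2 and 4 (quartiles 20.2% and 52.3%, in 148 genes with that median above 0), against 103% over all eligible genes. It lay below the highest of the 3 other group medians in 72 genes and above all 4 JX controls in 93. Against the JX control median, control 3 was higher by a median of 0.58 on the log2(FPKM + 0.5) scale, where the median over eligible genes was 0.0065. In 10 genes control 3 was the highest of its group. The rule's medians include this library, so these values describe the genes chosen. For the counts of 72, 93 and 10 no share over eligible genes is given, so nothing is read from them. With control 3 left out of the medians, 121 of the 150 genes were chosen again, and without control 1, 2 or 4 the count was 119, 118 or 120.

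**Figure D4:**
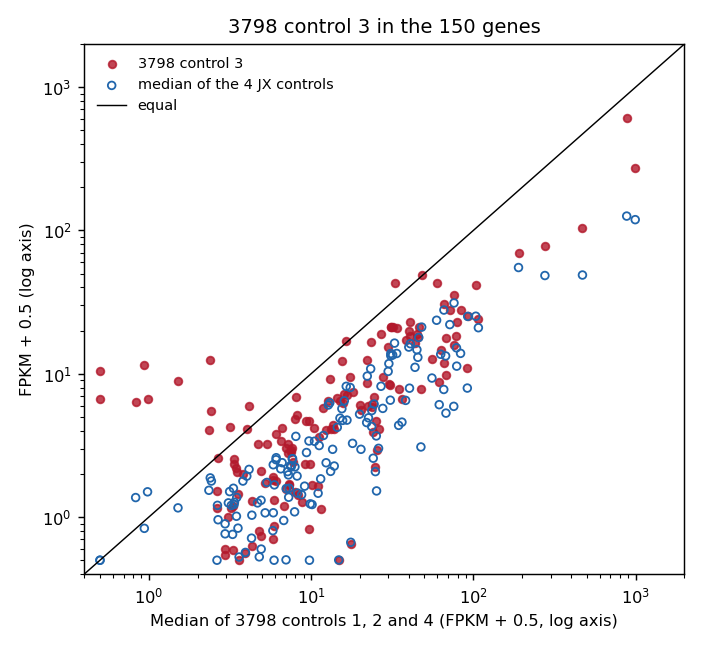
FPKM + 0.5 of 3798 control 3 (filled) and the JX control median (open) against the median of 3798 controls 1, 2 and 4, for the 150 genes on log axes. Most filled points lie under the line of equality, at a median of 33.3% of the other controls. In 93 genes control 3 exceeds all 4 JX controls, a count with no share over eligible genes beside it.

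The spread among the 3798 controls was largest with control 3 included. The median SD of log2(FPKM + 0.5) over the 150 genes was 0.845 in the 4 controls of 3798, and 0.221 without control 3. In 3798 silenced, JX control and JX silenced libraries it was 0.366, 0.353 and 0.413. Over all eligible genes the medians were 0.208 in the 4 controls of 3798 (0.139 without control 3) and 0.170, 0.151 and 0.188 in the other groups. The 150 genes thus had larger medians than the eligible genes in each group, including the 3 groups in which they are low. The comparison was not matched for level, so it is a description only. Of the 150 genes, 92 were at or above 0.5 FPKM in all 12 libraries outside the 3798 controls, and 0 were listed at 0 in all 12.

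The genes also varied together within the groups in which they are low. After each group's mean was taken out, a gene's correlation with the average of the other 149 genes over the 12 libraries outside the 3798 controls had a median of 0.51. The median for the 39482 other eligible genes was -0.0037. A correlation over 0.5 was found in 51.3% of the 150 genes and 13% of the others. The points share libraries and their composition, so this is a description with no test. The average deviation of the genes was highest in 3798 silenced 1 (0.66 SD units) and lowest in 3798 silenced 4 (-0.67), and within JX it was highest in JX silenced 2 (0.60) and JX control 2 (0.55).

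The genes were split into 3 classes by which group came second. For 88 genes the next highest median was in 3798 silenced libraries, with medians over these genes of 15 FPKM in 3798 controls, 5.71 FPKM in 3798 silenced, 2.71 FPKM in JX controls and 4.32 FPKM in JX silenced libraries. For 40 genes it was in JX controls, with 6.90 FPKM in 3798 controls, 2.03 FPKM in JX controls, and 0.781 and 0.922 FPKM in 3798 and JX silenced libraries. The remaining 22 genes had JX silenced libraries second, at 1.71 FPKM against 5.33 FPKM in 3798 controls. The split uses the medians that the rule used and has no share over eligible genes beside it, so nothing is read from these counts. Some genes were near ties. Gh_D02G204300, chosen after its values were seen, had medians of 2.38, 2.32 and 2.23 FPKM in JX silenced, JX control and 3798 silenced libraries.

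Whether the genes respond to GhBRC1 silencing in JX is a comparison whose direction the rule did not fix. It was tested by limma on log2(FPKM + 0.5) over the 12 libraries outside the 3798 controls, with Benjamini-Hochberg adjustment over 54218 genes, and 137 of the 150 genes passed the filter on low values. Of these, 27 rose and 14 fell in JX silenced libraries at an adjusted p under 0.05. That is 29.9% of the genes tested, and 30.9% of all genes were called. Rises made up 19.7% (15.7% of all genes) and falls 10.2% (15.1% of all genes). The median log2 change was 0.18 over the 137 genes and 0.0020 over all genes. At an unadjusted p under 0.05 the shares were 41.6% (57 genes) and 41.7%. In this fit the shares are near the background. Fitted on all 16 libraries, 7 rose and 13 fell among 148 genes tested, which is 13.5% against 28.3% of all genes in that fit. That fit takes part of its spread from the 3798 controls, whose values chose the genes. In those controls the median SD was 0.845 over the 150 genes and 0.208 over eligible genes. Its filter also counts those controls, so nothing is read from its share. In the fit to 12 libraries with a log2 change of at least 1 also required, the share was 16.1% against 8.59%. How the set stood to all genes thus depended on the threshold.

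The clearest falls were in Gh_D07G173900 and Gh_A08G047400. Gh_D07G173900 was at 25.7, 44.8, 34.3 and 27.1 FPKM in JX controls 1 to 4 and at 9.04, 8.88, 5.39 and 7.68 FPKM in JX silenced libraries 1 to 4. The groups did not overlap, and the log2 change was -2.01 (SE 0.186, limma adjusted p = 1.3e-05). In 3798 it was at 75.5, 78.2, 35.1 and 74.6 FPKM in controls and at 8.42 to 11.3 FPKM in silenced libraries, so the silenced libraries of both strains overlapped. Gh_A08G047400 was at 11.5, 12.9, 12.8 and 12.9 FPKM in JX controls and at 5.60, 4.04, 4.23 and 3.59 FPKM in JX silenced libraries, which is -1.44 in log2 (SE 0.156, adjusted p = 4.9e-05 by limma). In 3798 it was at 30.3, 35.4, 20.8 and 30.5 FPKM in controls and at 4.99 to 9.03 FPKM in silenced libraries.

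The rises with the smallest p were in Gh_A05G243900 and Gh_A13G018900. Gh_A05G243900 was at 1.55, 2.32, 3.02 and 2.72 FPKM in JX controls and at 5.88, 9.36, 7.04 and 4.77 FPKM in JX silenced libraries, a change of 1.31 in log2 (SE 0.222, adjusted p = 0.0010 by limma). With the 3798 controls in the fit its adjusted p by limma was 0.065. In 3798 the levels were 24.0, 25.6, 3.65 and 39.6 FPKM in controls and 6.20 to 11 FPKM in silenced libraries. Silenced libraries of both strains thus lay between the JX controls and 3798 controls 1, 2 and 4, and control 3 lay below the silenced libraries. Gh_A13G018900 was at 3.03, 4.79, 4.68 and 3.51 FPKM in JX controls and at 9.97, 12.6, 12.2 and 6.80 FPKM in JX silenced libraries, a change of 1.26 in log2 (SE 0.214, adjusted p = 0.0011 by limma). It was at 27.9, 35.8, 6.14 and 40.6 FPKM in 3798 controls and at 8.90 to 15.9 FPKM in 3798 silenced libraries.

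Gh_A12G264700 and Gh_D12G259200 also rose in JX. The log2 change was 1.04 (SE 0.275, limma adjusted p = 0.013) for Gh_A12G264700 and 0.91 (SE 0.258, limma adjusted p = 0.018) for Gh_D12G259200. With the 3798 controls in the fit, the adjusted p by limma was 0.076 and 0.083. For Gh_D12G259200 it was also 0.056 without JX control 1 and 0.052 without JX silenced 2.

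The members with the largest rise and the largest fall, picked from the called genes after their values were seen, show the extremes. Gh_D07G010500 was at 1.30, 3.78, 2.96 and 2.21 FPKM in JX controls and at 11.5, 17.5, 15.7 and 6.10 FPKM in JX silenced libraries, a change of 2.08 in log2 (SE 0.365, adjusted p = 0.0016 by limma). Its levels in 3798 controls were 48.2, 47.0, 7.27 and 47.0 FPKM. Gossypium_hirsutum_newGene_11936, an ID with no chromosome, was at 10.4, 11.8, 9.79 and 10.3 FPKM in JX controls and was listed at 0, 0.0320, 0 and 6.10 FPKM in JX silenced libraries 1 to 4. Its log2 change was -3.51 (SE 0.670, limma adjusted p = 0.0026). It was at 16.3 to 25.7 FPKM in 3798 controls and listed at 0 in 3 of the 4 silenced libraries of 3798. Gossypium_hirsutum_newGene_5706, also chosen after its values were seen, did not pass (limma adjusted p = 0.064) but did under 4 of the alternatives. It had a like outline, at 4.37 to 9.22 FPKM in 3798 controls and 0.382 to 3.23 FPKM in JX controls. It was at 2.23 FPKM in JX silenced 4 and listed at 0 in the other 7 silenced libraries. In both newGene IDs JX silenced 4, which stood apart above, was the silenced library with the highest level.

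The split by second group bears on these directions. Among the 88 genes with 3798 silenced second, 81 were tested, and 25 rose and 0 fell in JX silenced libraries, with a median log2 change of 0.42. Among the 40 genes with JX controls second, 38 were tested, and 14 fell. For those 40 and for the 22 with JX silenced second, where 2 of 18 tested rose, the split itself fixes which JX median is higher. The fitted change compares means of log2 values, so a few genes, none of them called, went the other way. For the 88 the split bears on the direction too, since it uses the same medians and moves genes high in JX controls into another class. These counts are a description of the split, not a result on silencing.

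The silenced libraries of both strains were compared next, again without the 3798 controls. By limma 0 of the 137 genes passed the adjusted threshold, and 0% of the 54218 genes did. Without adjustment, 27 genes (19.7%) had a p under 0.05, against 9.85% of all genes, and all 27 were lower in JX. Over all genes, 3.58% were lower in JX at that p and 6.27% higher. The difference was below 0 in 112 and above 0 in 25 of the 137 genes, where 56.5% of all genes were above 0. Its median was -0.23 over the 137 genes and 0.03 over all genes. The share at an unadjusted p under 0.05 depended on single libraries. It was 7.30% (10 genes) without 3798 silenced 1, which had the highest level of the set among the silenced libraries, against 6.63% of all genes. Without JX silenced 3 it was 14.6% against 13.7%, and without JX silenced 4 it was 11.9% (16 genes) against 6.83%. With the 3798 controls in the fit it was 6.76% (10 genes) against 7.89%, but that fit uses the values that chose the genes, so nothing is read from it. Without 3798 silenced 1 and without JX silenced 3 the share was thus close to that of all genes. In every other setting run, the share stayed above that of all genes. It was 13.9% against 9.37% without 3798 silenced 2, 24.1% against 8.69% without JX silenced 2, and 24.1% against 12.2% with a replicate block.

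Gh_D05G264200 and Gh_A05G069200, chosen after their values were seen, had the smallest p of the set in that comparison and did not pass. Gh_D05G264200 was at 9.47, 5.66, 5.53 and 5.73 FPKM in 3798 silenced libraries and at 3.58, 4.35, 2.76 and 2.76 FPKM in JX silenced libraries, a difference of -0.86 in log2 (SE 0.178, adjusted p = 0.31 by limma). Gh_A05G069200 was at 8.73, 4.77, 6.42 and 5.02 FPKM in the former and at 2.54, 3.59, 3.06 and 3.10 FPKM in the latter, a difference of -0.89 (SE 0.187, limma adjusted p = 0.31). In both genes the 2 groups did not overlap. Their levels in 3798 controls 1, 2 and 4 were 15 to 19.1 FPKM and 17.4 to 17.9 FPKM, and control 3, at 6.61 and 6.95 FPKM, lay inside the range of the 3798 silenced libraries.

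**Figure D5:**
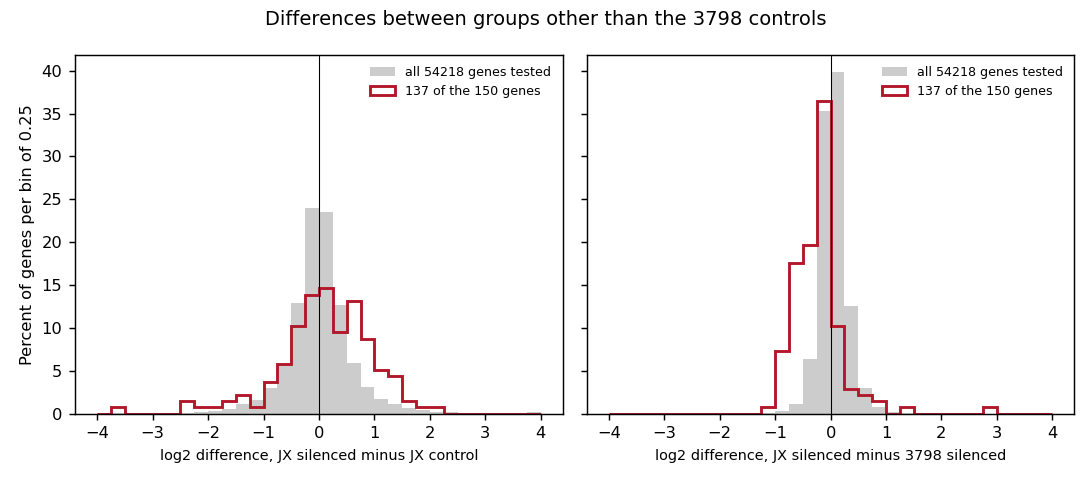
Distribution of log2 differences on the log2(FPKM + 0.5) scale between groups other than the 3798 controls, for 137 of the 150 genes (red line) and all 54218 genes tested (grey), in percent of genes per bin of 0.25. On the left (JX silenced minus JX control) the red line is broad around a median of 0.18, and on the right (JX silenced minus 3798 silenced) it is shifted below 0, to a median of -0.23.

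Positions were read from the IDs. The A subgenome held 68 of the 150 genes (45.3%, against 45.4% of eligible genes), the D subgenome 65 (43.3%, against 46.4%), newGene IDs 12 (8.0%, against 6.92%) and contigs 5 (3.33%, against 1.31%). The genes lay on 25 of 26 chromosomes, with 10 on A11, 9 each on A05 and D07, and 0 on D13. They were thus spread over both subgenomes, in shares near those of the genes they were drawn from.

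Few were neighbours. With a gap of at most 10 IDs counted as neighbouring, there were 5 groups, each of 2 genes, where the genes ranked 151 to 300 had 4. Gh_A06G076300 and Gh_A06G076400 are next to each other in the ID order. They were at 141, 103, 40.9 and 65.7 FPKM and at 31.7, 41.9, 7.33 and 34.1 FPKM in 3798 controls 1 to 4, and at 15.4 to 49.2 FPKM and 2.29 to 20.8 FPKM in the 12 other libraries. Gh_A06G076400 rose in JX silenced libraries by a log2 of 1.30 (SE 0.380, limma adjusted p = 0.022), a call lost without any 1 of 5 of the 8 JX libraries (adjusted p up to 0.066) and with all 16 libraries fitted (0.063). Gh_A06G076300 did not pass, at 0.19 (SE 0.351, limma adjusted p = 0.72). The other adjacent pair, Gh_A11G376400 and Gh_A11G376500, was at 9.07 to 32.0 FPKM and 0.812 to 6.05 FPKM in 3798 controls, lowest in control 3 for both, and at 4.44 to 13.3 FPKM and 0.376 to 2.95 FPKM elsewhere. Gh_A11G376400 rose in JX silenced libraries by a log2 of 0.68 (SE 0.237, limma adjusted p = 0.044), a call lost without any 1 of 6 of the 8 JX libraries or without 3798 silenced 1 (adjusted p up to 0.11), with no filter on low values (0.061) and with all 16 libraries fitted (0.14). Gh_A11G376500 did not pass, at 0.51 (SE 0.272, limma adjusted p = 0.17).

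Several genes had a counterpart in the set at a like place on the same-numbered chromosome of the other subgenome. Upland cotton is an allotetraploid, and chromosomes with the same number in the A and D subgenomes are largely homoeologous. Counting places in ID order that differ by at most 1% of the chromosome, 27 genes formed 16 such pairs, where the genes ranked 151 to 300 had 21 genes in 11 pairs. Both sets come from the same ranking, and no share over eligible genes is given. A gene could stand in more than 1 pair. Gh_A11G376400 and Gh_A11G376500 each matched both Gh_D11G384100 and Gh_D11G385800. Gh_A12G264700 and Gh_D12G259200, at places 2242 of 2606 and 2218 of 2576, had a correlation of 0.995 over the 12 libraries outside the 3798 controls. For Gh_A11G371700 and Gh_D11G379800 it was 0.61, and over the 16 pairs it ranged from 0.123 to 0.995. The lowest value was for Gh_A11G376400 and Gh_D11G385800, which each stood in more than 1 pair. The files do not say which genes are homoeologues, the points share libraries, and reads that match both copies of a gene could have been split between them, so the levels of the 2 copies are uncertain.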

How the data were processed

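The authors deposited 1 table of FPKM for 70422 gene IDs in 16 libraries, the unit being named in the deposited table's own name. For the aligner, read counter, genome build, gene models and strand setting the entry is: not given in the sources used here. Fragments shared by homoeologous copies or by overlapping genes may have been split or joined. Few low values looked like whole reads. After scaling for relative depth, 12.3% of 58952 lay within 0.02 of a whole multiple of their gene's lowest value. Evenly spread values give 4%. The check rests on the rough depth estimate and takes each gene's lowest value as its unit, so it is rough too. No count model was used. No pair of libraries held identical values. Groups and replicate numbers came from titles, and columns from sample descriptions. Of the IDs, 0 were found among 99454 RefSeq genes (assembly Gossypium_hirsutum_v2.1), so no gene list could be run and no sequence is shown.

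Members and lists were chosen with earlier results of these data known. Limma 3.58.1 (R 4.3.3; trend, robust, two-sided) was fitted on log2(FPKM + 0.5) with 1 mean per group to the 12 libraries outside the 3798 controls, keeping genes that reached 0.5 FPKM in 4 or more of these. P-values were Benjamini-Hochberg adjusted over all genes tested. On simulated data for JX silenced against JX control (53787 genes) the fit called 72 of 100 genes given a log2 change of 1, 94 of 100 given 2, and 7 unchanged genes. The simulation put normal noise around a mean common to the groups and changed no other genes. In the data 30.9% of genes were called, which moves the adjusted threshold, so these counts do not carry over to it. Genes named were the 6 highest ratios, the 3 highest 3798 control medians and 2 on each side of the limit. Also named were the 2 called in each direction with the smallest p per comparison. The members of 2 groups of neighbouring IDs were named too (of 5 of equal size, the 2 with the narrowest span). Others are said to be chosen after their values were seen. Alternatives were pseudocounts, filters, scalings, other fits, library weights, a replicate term, other forms of the rule and each library left out. Python 3.11.15 with pandas 2.3.3 and matplotlib 3.10.9 was used for the rest.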

Additional observations from a re-analysis of the deposited data

Results flagged for a closer look

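The summed level of the set and genes named above were checked for values far from the rest of their group. In 112 groups of 4 values, 24 values lay far from the other 3 of their group. Chance flags about 5% of groups, but these genes were named for their values, so that share is no yardstick here. Groups with 3 libraries at or near 0 also flag any higher value. The summed level of the 150 genes was 2299 FPKM in 3798 control 3, with the next library at 5741 FPKM. Control 3 was also flagged as low in Gh_D07G173900 (35.1 FPKM, next 74.6), Gh_D07G010500 (7.27 FPKM, next 47.0) and Gh_A05G069200 (6.95 FPKM, next 17.4).

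3798 silenced 1 was flagged as high in Gh_D12G259200 (555 FPKM, next 328), Gh_A12G264700 (249 FPKM, next 138), Gh_Contig01062G000300 (14.3 FPKM, next 6.49), Gh_A11G371700 (11.8 FPKM, next 9.27) and Gh_D05G264200 (9.47 FPKM, next 5.73). 3798 silenced 4 was high in Gh_A01G185300 (15.9 FPKM, next 0.164), Gh_Contig00964G000100 (9.99 FPKM, next 0.390) and, at a very low level, Gh_A08G128000 (0.0219 FPKM, next 0.00143). 3798 silenced 3 was high in Gh_A10G125900 (31.2 FPKM, next 0.135) and in Gossypium_hirsutum_newGene_11936 (0.141 FPKM, the others listed at 0).

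JX silenced 1 was high in Gh_A11G188000 (471 FPKM, next 1.76), Gh_Contig00964G000100 (10.5 FPKM, next 0.420) and Gh_A01G185300 (1.96 FPKM, next 0.344), and JX silenced 2 in Gh_A11G371700 (11.4 FPKM, next 5.56). JX silenced 4 was high in Gossypium_hirsutum_newGene_11936 (6.10 FPKM, next 0.0320), Gossypium_hirsutum_newGene_5706 (2.23 FPKM, the others listed at 0) and Gh_D02G010200 (2.30 FPKM, next 1.43). Among JX controls, library 4 was high in Gh_Contig00964G000100 (12.2 FPKM, next 0.376), library 1 was high in Gh_A08G128000 (0.0150 FPKM, next 0.00258) and low in Gh_A08G047400 (11.5 FPKM, next 12.8).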

How the results depend on the processing

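Of 73 values recomputed for counts over the set, 69 stayed within 1.5 times the reported count. The number of genes called in JX silenced against JX control libraries, 41, was 20 with all 16 libraries fitted (13.5%, against 28.3% of all genes) and 22 with a log2 change of at least 1 (16.1%, against 8.59%). The fit to 16 libraries takes part of its spread from the values that chose the genes, so nothing is read from its count. Each library left out in turn gave 30 to 50, a replicate block 47, and leaving out both 3798 silenced 4 and JX silenced 4, an alternative added after the data were seen, 52. Between silenced libraries the count among the 150 genes was 0 in each setting run, also with the replicate block. The labels leave unsaid what libraries with the same replicate number share. Of 8 same-numbered pairs, 3 deviated together with a correlation over 0.1, and in 5 of 8 the best match had the same number. The highest correlation was 0.357, between JX silenced 4 and 3798 silenced 4. Whether replicate numbers carry a shared effect was not tested. Genes with all 3798 controls above the other 12 libraries numbered 23, and 119 with control 3 left out. Genes listed at 0 in all 12 numbered 0, and 1 was under 0.1 FPKM in all 12. Other forms of the rule chose 108 to 145 of the 150 genes again (112 with group means, 108 with a minimum of 5 FPKM), and leaving out each library 118 to 146. Of named genes, 22 recomputed values lost and 4 gained a call, and 0 reversed. The cause of these shifts was not tested. Absolute depth is unknown, so no limit from counting error can be given for low values.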
